A study of Mus musculus with 12 samples.

Results

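Chemokines are small secreted proteins that attract leukocytes, and their receptors are G protein-coupled receptors on the surface of the cells that migrate. The genes described here are the protein-coding rows of the count table whose symbol starts with Ccl, Cxcl, Ccr or Cxcr followed by a number, together with Cx3cl1 and Cx3cr1. They are 54 of the 43346 genes in the table, 36 ligands (23 of the CC, 12 of the CXC and 1 of the CX3C family) and 18 receptors (11, 6 and 1). The family is named for the spacing of the conserved cysteines near the amino terminus of the ligand. In liver, Ccl2 and its receptor Ccr2 are best known for bringing monocytes from blood, Cxcl1 and Cxcl2 for attracting neutrophils through Cxcr2, Cxcl9 and Cxcl10 for attracting activated T cells through Cxcr3, Cxcl16 for holding lymphocytes that carry Cxcr6, and Cxcl13 for guiding B cells through Cxcr5.

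The samples were 12 bulk RNA-seq libraries of mouse liver that fell into 4 groups of 3. All mice carried S1pr1 loxp/loxp, a floxed allele of the gene for sphingosine 1-phosphate receptor 1. Knockout mice (S1pr1MKO) carried in addition Lyz2-Cre/0, a recombinase expressed in myeloid cells, and the controls, called wild type by the authors, were littermates with the floxed alleles and no Cre. Each genotype received chow or the FFC diet (high fat, fructose and cholesterol, AIN-76A Western Diet) for 24 weeks from 12 weeks of age, and the sex of the mice is not given in the sources used here. Nothing in the labels ties a library to a separate animal, so p-values measure the spread between these libraries, and in bulk tissue fewer cells of a type and less RNA per cell cannot be told apart.

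Total counts per library were 18873092 to 31154930, and 16283 genes, among them 32 of the 54 chemokine and receptor genes, passed the filter on low counts. Libraries of the 2 diets differed in what was seen at all, with a count for 16008 to 19029 genes on chow and for 20556 to 21308 on FFC. Normalization factors were 0.759 to 0.961 on chow and 1.09 to 1.25 on FFC. Hepatocyte markers fell on FFC in both genotypes (6 of 8 in wild type and 7 of 8 in knockout, edgeR adjusted p under 0.05). Of all tested genes, 8.03% fell in wild type and 12.8% in knockout livers. Knockout chow replicate 1 stood apart from the other libraries on the second principal component, which held 13.95% of the variance. S1pr1 itself stood at 27.3 to 44.4 CPM (counts scaled to a common effective library size) in all libraries, and its log2 difference between knockout and wild type was 0.11 on FFC and 0.02 on chow, with neither past the test. Whole liver holds many S1pr1-expressing cells outside the myeloid lineage, so this level does not check the deletion.

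Promoter sequence is shown first for the genes whose values frame the results. Ccl9 and Ccl6 are neighbours on chromosome 11 that moved in opposite directions with diet. Cxcl1 and Cxcl2 are neighbours on chromosome 5 that differed in level and in call, Cxcl10 is an interferon-induced ligand, and Cxcl13 was the member with the largest difference between genotypes on FFC. Each window runs from 250 bases before to 50 bases after the RefSeq start, 5′ to 3′ on the gene's strand, with the build GRCm38.p6. The windows are chr11:83578587-83578886 (minus strand) for Ccl9, chr11:83593038-83593337 (minus) for Ccl6, chr5:90890995-90891294 (plus) for Cxcl1, chr5:90903649-90903948 (plus) for Cxcl2, chr5:92348840-92349139 (minus) for Cxcl10 and chr5:95956689-95956988 (plus) for Cxcl13. Capitals mark matches to the NF-kB consensus site or, in the first capital stretch of Cxcl10, to the core of the interferon-stimulated response element. Both strands were searched.
Ccl9: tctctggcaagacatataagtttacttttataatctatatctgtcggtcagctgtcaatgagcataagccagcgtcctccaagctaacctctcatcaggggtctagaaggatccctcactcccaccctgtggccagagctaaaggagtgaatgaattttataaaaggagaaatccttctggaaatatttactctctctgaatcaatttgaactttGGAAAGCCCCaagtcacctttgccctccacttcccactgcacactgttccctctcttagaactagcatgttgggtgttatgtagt
Ccl6: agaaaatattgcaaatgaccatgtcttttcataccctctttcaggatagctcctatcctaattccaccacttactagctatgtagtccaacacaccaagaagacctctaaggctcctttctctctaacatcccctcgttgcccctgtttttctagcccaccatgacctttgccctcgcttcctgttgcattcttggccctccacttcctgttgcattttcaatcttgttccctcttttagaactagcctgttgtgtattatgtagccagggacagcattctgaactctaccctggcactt
Cxcl1: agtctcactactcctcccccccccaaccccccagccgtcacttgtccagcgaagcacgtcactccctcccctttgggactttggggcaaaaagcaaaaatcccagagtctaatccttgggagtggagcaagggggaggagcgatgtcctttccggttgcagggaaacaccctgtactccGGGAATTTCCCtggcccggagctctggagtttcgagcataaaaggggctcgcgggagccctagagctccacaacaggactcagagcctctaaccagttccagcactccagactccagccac
Cxcl2: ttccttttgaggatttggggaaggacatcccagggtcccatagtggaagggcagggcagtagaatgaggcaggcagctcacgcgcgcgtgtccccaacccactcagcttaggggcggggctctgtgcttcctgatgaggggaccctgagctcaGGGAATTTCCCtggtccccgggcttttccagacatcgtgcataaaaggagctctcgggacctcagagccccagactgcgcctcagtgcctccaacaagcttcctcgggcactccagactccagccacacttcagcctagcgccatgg
Cxcl10: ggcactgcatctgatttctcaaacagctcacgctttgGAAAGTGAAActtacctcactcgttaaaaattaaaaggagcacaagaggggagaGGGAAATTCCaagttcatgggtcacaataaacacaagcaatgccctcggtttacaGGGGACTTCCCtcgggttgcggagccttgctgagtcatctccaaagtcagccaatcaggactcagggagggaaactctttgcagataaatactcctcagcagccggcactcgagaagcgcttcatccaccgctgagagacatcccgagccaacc
Cxcl13: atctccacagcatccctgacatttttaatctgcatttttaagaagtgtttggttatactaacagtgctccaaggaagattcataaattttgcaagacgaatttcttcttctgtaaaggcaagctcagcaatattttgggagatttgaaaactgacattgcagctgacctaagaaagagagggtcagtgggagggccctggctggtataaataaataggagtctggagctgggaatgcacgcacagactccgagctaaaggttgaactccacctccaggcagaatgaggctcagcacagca

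Cxcl1 and Cxcl2 held the same NF-kB match, which reads on both strands with a shift of 1 base and ends 61 bases before the start in Cxcl1 and 87 bases before it in Cxcl2. Untested Cxcl3 held it too, 63 bases before its start. Of the 54 genes 40 had a promoter window, and 11 of these (27.5%) held an NF-kB match, against 9.55% of the 27025 genes with a window. Interferon-stimulated response element cores were found in 3 of 40 (Ccl19, Cxcl10 and Cxcl14), or 7.5%, against 3.99%. STAT sites (TTCNNNGAA) were found in 4 of 40, or 10%, against 9.55%. Among genes past a diet test and with a window, 3 of 9 held an NF-kB match (Ccl9, Ccr1 and Cxcl2), and among those tested and not past a test 3 of 14 did (Ccl27a, Cxcl1 and Cxcl10). Ccl6 and Cxcl13 held no match to any of the 3 motifs in this window. A match is a string of letters and is not a bound site.

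In every group most chemokine reads came from a few ligands. Cxcl12, the ligand of Cxcr4 and a homeostatic signal for stem cells and lymphocytes, took 58.8% of the counts of the 54 genes in wild-type chow livers, 69.4% in knockout chow, 59.0% in wild-type FFC and 64.6% in knockout FFC livers. Ccl9, a mouse ligand of Ccr1, followed with 24.4% and 15.7% on chow and 11.4% and 9.63% on FFC. Per kilobase of gene length, Ccl9 and Cxcl12 led the wild-type chow livers with mean levels of 34.0 ± 8.51 and 30.4 ± 4.23 CPM per kb (SD, n = 3), and their ranges overlapped. Cxcl1 came next at 10.5 ± 2.17 CPM per kb, below both ranges. In wild-type FFC livers Cxcl12 (29.5 ± 3.12 CPM per kb) stood alone at the top, and Ccl9 (15.4 ± 2.25) and Ccl6 (14.6 ± 2.58) could not be separated. Knockout FFC livers gave the same first 3, with Cxcl12 at 30.8 ± 0.853, Ccl9 at 12.4 ± 3.33 and Ccl6 at 12.0 ± 2.84 CPM per kb.

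Among the receptors, in wild-type FFC livers Cxcr4 (1.60 ± 0.133 CPM per kb) and Ccr2 (1.00 ± 0.335 CPM per kb) had ranges that did not overlap, and Cx3cr1 (0.804 ± 0.243) overlapped with Ccr2. In knockout chow livers Cxcr5 (0.396 ± 0.170 CPM per kb) overlapped with Cxcr4 (0.231 ± 0.201).

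**Figure D1:**
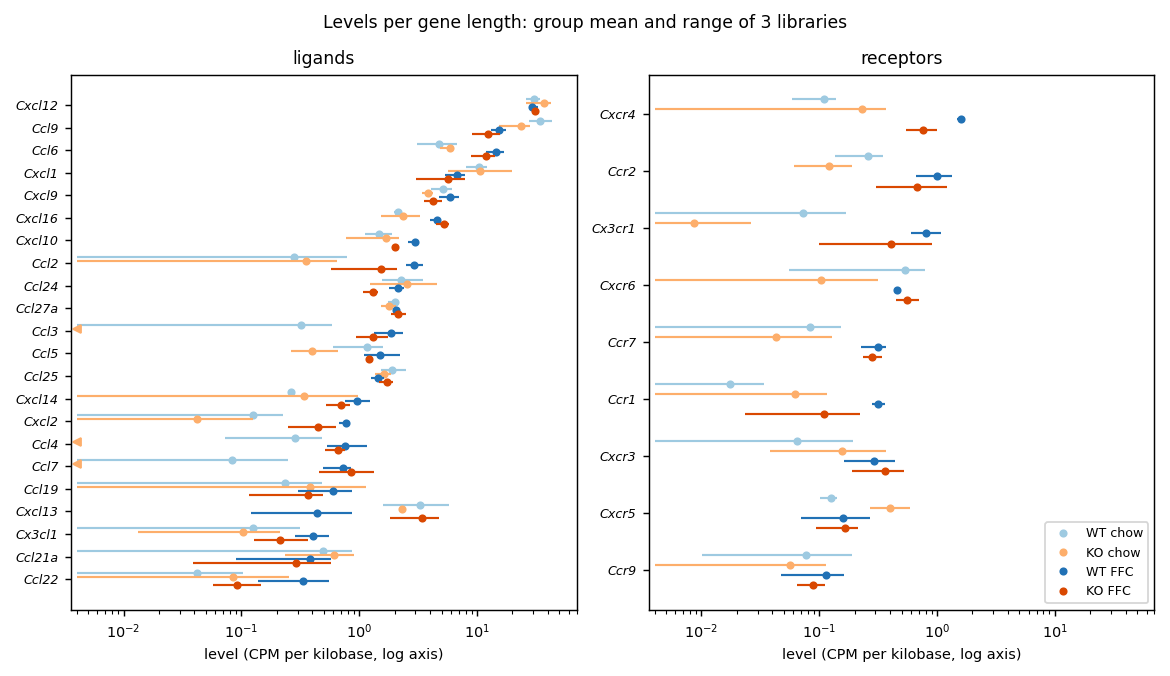
Level per kilobase of gene length (CPM per kb, log axis) of 22 tested ligands and 9 tested receptors, as the mean (point) and range (line) of 3 libraries in each group. Ranges that reach 0 run to the left edge, where triangles mark groups with no count. Cxcl12 has group means of 29.5 to 37.0 CPM per kb, and the FFC groups lie to the right of the chow groups for Ccl2, Ccl3, Cxcl2 and most receptors.

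Detection itself moved with diet. Chow libraries had a count for 23 to 33 of the 54 genes and FFC libraries for 42 to 46, and when all libraries were brought to an equal effective depth the expected numbers were 22.88 to 32.01 and 39.21 to 42.8. Because the filter asks for enough counts in 3 libraries of any kind, 14 of the 32 tested genes passed it only with the help of FFC libraries, among them Ccl2, Ccl3, Ccl4, Ccl7, Cxcl2, Ccr1, Ccr7, Cx3cr1 and Cxcr4. The counts over tested genes that follow are therefore descriptions. Of the 22 genes not tested, Cxcl3, Cxcl15, Ccl26 and Ccl27b had no count in any library, and the other 18 reached at most 18 counts. Cxcl5, a neutrophil-attracting ligand, had no count on chow and 37 and 19 counts over the 3 wild-type and the 3 knockout FFC libraries, and Cxcr1 likewise had none on chow and 15 and 28 on FFC.

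The comparison of FFC with chow within wild-type mice asks what the diet does to the liver when S1pr1 is intact. It raised 9 of the 32 tested genes and lowered 2, or 34.4% (edgeR adjusted p under 0.05), where 16.8% of all tested genes passed (8.76% higher and 8.03% lower). By role, 4 of 22 ligands rose and 2 fell, and 5 of 10 receptors rose. The median log2 change of the 32 was 1.36, against 0.04 over all tested genes. The levels of the 2 groups did not overlap for 59.4% of them, against 45.1% of all tested genes. In knockout mice FFC raised 9 and lowered 1 (31.2%, with 26.5% of all tested genes past the test, 13.7% higher and 12.8% lower), 6 of 22 ligands and 3 of 10 receptors rising. The median log2 change there was 0.97, also with genes that had no chow count set to their lower bound, against 0.09 for all tested genes, and 43.8% did not overlap, against 39.5%. Leaving out wild-type FFC replicate 2 reduced the 11 calls in wild type to 6.

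**Figure D2:**
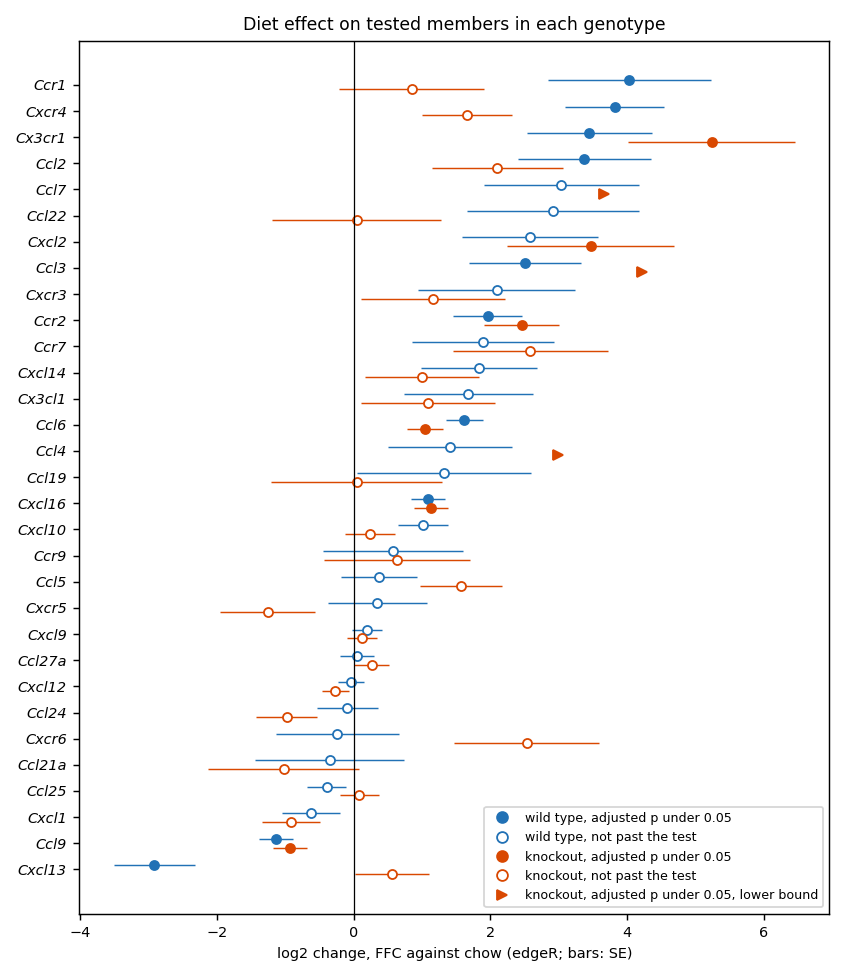
The log2 change from chow to FFC in wild-type (blue) and knockout (orange) livers for 31 tested genes, with the standard error (SE) of the edgeR fit as bars. Filled marks passed the test, and triangles give the lower bound for genes with no count in knockout chow livers. Most genes lie to the right of 0 in both genotypes, and Cxcl13 lies at -2.92 in wild type.

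Ccl6, a mouse CC ligand of macrophages that binds Ccr1, was the called ligand with the lowest p in wild type. Its levels were 5.52, 12.1 and 8.02 CPM in wild-type chow livers (values follow the library numbers of the labels) and 30.4, 21.2 and 27.1 CPM in wild-type FFC livers. In knockout livers they were 8.72, 11.2 and 11.5 CPM on chow and 23.2, 25.7 and 15.9 CPM on FFC. Every FFC library lay above every chow library. The log2 change was 1.62 (SE 0.27, edgeR adjusted p = 6.89e-04) in wild type and 1.04 (SE 0.26, edgeR adjusted p = 0.00809) in knockout livers, and both calls held under every alternative tried.

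Its neighbour Ccl9 went the other way. Ccl9 stood at 93.0, 133 and 84.5 CPM in wild-type chow and at 54.05, 40.4 and 46.7 CPM in wild-type FFC livers. The ranges did not overlap, and the log2 change was -1.14 (SE 0.25, edgeR adjusted p = 0.00489). Knockout livers had 46.9, 82.4 and 85.2 CPM on chow and 37.5, 47.8 and 27.6 CPM on FFC. There the ranges touched, since chow replicate 1 lay just below FFC replicate 4. The log2 change was -0.92 (SE 0.25, edgeR adjusted p = 0.0112), and the adjusted p rose to 0.0576 without knockout FFC replicate 7. The annotated starts of the 2 genes lie 15 kb apart, and both are transcribed from the same strand.

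The monocyte attractant Ccl2 was near the detection limit on chow. Wild-type chow livers gave 0.0480, 0 and 0.903 CPM and wild-type FFC livers 3.94, 3.24 and 2.85 CPM, with no overlap. The log2 change was 3.38 (SE 0.97, edgeR adjusted p = 0.0271). The call was lost when either wild-type chow replicate 2 or 3, or any 1 of the wild-type FFC libraries, was left out (adjusted p 0.0609 to 0.0843), and with DESeq2 (adjusted p = 0.0603). In knockout livers Ccl2 was 0.735, 0 and 0.461 CPM on chow and 2.16, 2.37 and 0.659 CPM on FFC. These ranges overlapped through FFC replicate 7, and the log2 change of 2.1 (SE 0.95) missed the threshold (edgeR adjusted p = 0.113). It passed with no filter on low counts (adjusted p = 0.00429) and without wild-type chow replicate 4 (0.0476).

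Ccl7, which shares Ccr2 with Ccl2 and starts 10 kb from it, was at 0, 0 and 0.201 CPM in wild-type chow and 0.394, 0.685 and 0.675 CPM in wild-type FFC livers. No wild-type chow library reached the FFC range, but the log2 change of 3.04 (SE 1.13) did not pass (edgeR adjusted p = 0.0792). It passed with DESeq2 (3.11, adjusted p = 0.0399), with GC and length offsets (3.62, 0.0421) and without knockout chow replicate 1 (0.047). Without wild-type chow replicate 4, the only one with a count, the fitted value was 6.97 (adjusted p = 0.0273) and depends on the prior count. Knockout chow livers had no Ccl7 count, and knockout FFC livers had 1.06, 0.642 and 0.362 CPM. Against a floor of 3 counts over the chow group it was at least 12.7-fold higher (edgeR adjusted p = 0.00778).

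Ccl3 and Ccl4, inflammatory ligands made by activated macrophages and lymphocytes, sit side by side at the end of the chromosome 11 cluster. Ccl3 was 0.288, 0 and 0.451 CPM in wild-type chow and 1.46, 1.82 and 1.03 CPM in wild-type FFC livers, with no overlap. The log2 change of 2.51 (SE 0.82, edgeR adjusted p = 0.0473) was lost in 9 of the 12 fits that left out 1 library (adjusted p 0.053 to 0.156). Those were the fits without any 1 of the wild-type chow, wild-type FFC and knockout FFC libraries. Knockout chow livers had no Ccl3 count, and knockout FFC livers had 0.963, 1.35 and 0.725 CPM, at least 18.6-fold more (edgeR adjusted p = 0.00202). Ccl4 was at 0.0480, 0.317 and 0.201 CPM in wild-type chow, at 0.394, 0.764 and 0.352 CPM in wild-type FFC and at 0.498, 0.338 and 0.461 CPM in knockout FFC livers, with no count in knockout chow livers. It was at least 7.97-fold higher on FFC in knockout livers (edgeR adjusted p = 0.00875), and its log2 change in wild type was 1.41 (SE 0.90, edgeR adjusted p = 0.317).

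**Figure D3:**
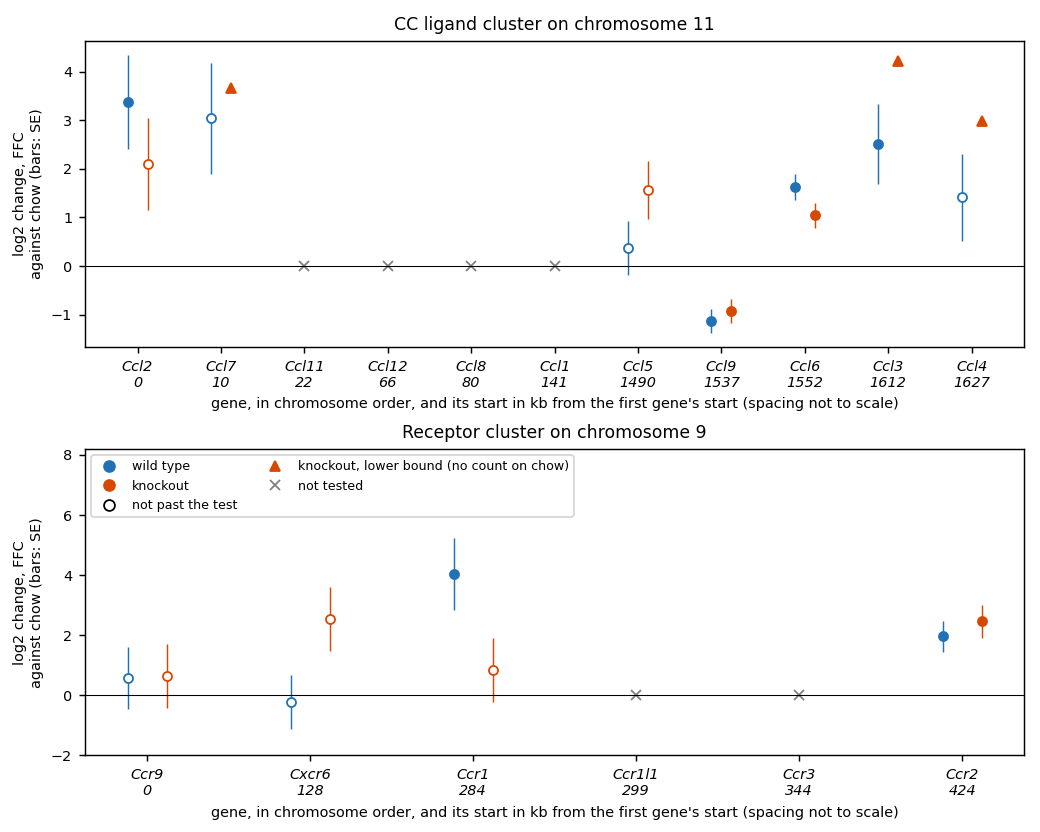
The log2 change from chow to FFC along the CC ligand cluster of chromosome 11 (top) and the receptor cluster of chromosome 9 (bottom), named genes in chromosome order with the start of each in kb from the first. Filled marks passed the edgeR test, triangles are lower bounds, crosses are genes not tested, and bars are SE. Ccl9 lies below 0 in both genotypes between Ccl5 and Ccl6.

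Among the 11 genes of the chromosome 11 cluster (82035571 to 83664683 on mm10), 7 were tested. FFC raised 3 of these and lowered 1 in wild type (57.1%, against 16.8% of all tested genes). In knockout livers it raised 4 and lowered 1 (71.4%, against 26.5%). Of the 7, Ccl2, Ccl3, Ccl4 and Ccl7 passed the filter only with the help of FFC libraries, so these counts are descriptions. Ccl5, also in this cluster, attracts T cells and monocytes. It stood at 0.576, 1.53 and 1.25 CPM in wild-type chow, 1.18, 1.05 and 2.11 in wild-type FFC, 0.637, 0.255 and 0.263 in knockout chow and 1.26, 1.15 and 1.09 CPM in knockout FFC livers. The knockout groups did not overlap, yet the log2 change of 1.57 (SE 0.60) missed the threshold (edgeR adjusted p = 0.0624). It passed without knockout chow replicate 1 (2.15, adjusted p = 0.0258), with GC and length offsets (2.19, 0.0124) and with DESeq2 (1.53, 0.0364).

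Cxcl16, a membrane-anchored ligand that also acts as a scavenger receptor, rose in both genotypes. Wild-type livers had 6.00, 6.49 and 6.92 CPM on chow and 14.9, 12.1 and 14.4 on FFC, and knockout livers had 9.95, 6.94 and 4.61 on chow and 16.2, 17.6 and 13.5 CPM on FFC. No chow library reached the lowest FFC library. The log2 changes were 1.09 (SE 0.25, edgeR adjusted p = 0.00639) and 1.13 (SE 0.25, edgeR adjusted p = 0.00343), and the difference between them was 0.04 (SE 0.35, edgeR adjusted p = 0.97). Cxcl16 shares 552 exon bases with Zmynd15 on the opposite strand (mean counts 308 and 126), and it is not given in the sources used here whether counting used strand.

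The neutrophil-attracting ligands split. Cxcl2 was 0.240, 0.158 and 0 CPM in wild-type chow and 0.871, 0.712 and 0.881 CPM in wild-type FFC livers. These groups did not overlap, and the log2 change of 2.58 (SE 0.99) missed the threshold (edgeR adjusted p = 0.0852), but not when knockout chow replicate 1 or 3 was left out (adjusted p 0.0468 and 0.0464), with DESeq2 (0.0341), in the 2 groups alone (0.037) or with the authors' stated filter (0.0489). In knockout livers Cxcl2 had 2 counts in all on chow, 0, 0 and 0.132 CPM, against 0.664, 0.473 and 0.264 CPM on FFC. The ratio was 12.9 (95% counting interval 3.35 to 110), and the edgeR adjusted p of 0.0433 rose to 0.0549 to 0.129 in 8 of the 12 fits without 1 library. The 8 left out knockout chow replicate 1 or 2, or any 1 of the FFC libraries. Cxcl1 was far more abundant, at 10.6, 11.7 and 7.67 CPM in wild-type chow, 5.12, 6.77 and 7.52 in wild-type FFC, 5.44, 19.1 and 5.99 in knockout chow and 7.60, 5.71 and 2.90 CPM in knockout FFC livers. Its log2 changes of -0.63 (SE 0.42) and -0.92 (SE 0.42) did not pass in either genotype (edgeR adjusted p = 0.341 and 0.12), although the knockout change passed without knockout chow replicate 3 (-1.22, adjusted p = 0.046) and with no filter on low counts (-0.88, 0.0156). Cxcr2, their receptor and a neutrophil gene, was too low to test, at 0.288, 0.211 and 0 CPM in wild-type chow, 0.225, 0.343 and 0.147 in wild-type FFC and 0.365, 0.101 and 0.132 CPM in knockout FFC livers, with no count in knockout chow livers. The summed level of 8 neutrophil markers ran from 4.18 to 4.80 CPM (wild-type chow), 4.94 to 17.0 CPM (knockout chow), 9.02 to 10.8 CPM (wild-type FFC) and 8.07 to 13.4 CPM (knockout FFC), with Ly6g at 0 in both chow groups and Mmp8 at 0 in knockout chow. Its part in these values was not tested.

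The Cxcr3 ligands Cxcl9 and Cxcl10 did not pass. Cxcl10 was 2.11, 1.69 and 2.86 CPM in wild-type chow and 4.86, 4.67 and 3.96 CPM in wild-type FFC livers, which did not overlap. Its log2 change was 1.02 (SE 0.36, edgeR adjusted p = 0.0647), with an adjusted p of 0.0315 by DESeq2, 0.0197 in the 2 groups alone, 0.0376 with GC and length offsets, and 0.0386 and 0.0196 without knockout chow replicate 1 and 3. Knockout livers had 3.28, 3.21 and 1.19 CPM on chow and 3.09, 2.94 and 3.16 CPM on FFC. Cxcl10 shares 133 exon bases with Art3, an overlapping gene of similar count (means 86.8 and 61.0). Cxcl9 was 11.8, 15.4 and 17.8 CPM in wild-type chow, 9.997, 12.3 and 11.2 in knockout chow, 20.3, 17.6 and 13.7 in wild-type FFC and 10.4, 14.6 and 11.6 CPM in knockout FFC livers. Its log2 change in wild type was 0.20 (SE 0.22, edgeR adjusted p = 0.579). Cxcr3 itself was low, at 0.336, 0 and 0 CPM in wild-type chow, 0.637, 0.102 and 0.0659 in knockout chow, 0.281, 0.475 and 0.763 in wild-type FFC and 0.631, 0.912 and 0.330 CPM in knockout FFC livers. Both overlapped between the diets in each genotype. Cxcl12, despite its counts, showed no change past the test in wild type (253, 281 and 212 CPM on chow, 225, 271 and 228 CPM on FFC, log2 change -0.04, SE 0.19). Knockout livers had 346, 348 and 215 CPM on chow and 245, 259 and 253 CPM on FFC, a log2 change of -0.26 (SE 0.19) that passed only without knockout chow replicate 3 (-0.51, edgeR adjusted p = 0.0352). Ccl24, an eosinophil attractant, was 2.02, 4.49 and 2.31 CPM in wild-type chow, 5.88, 1.58 and 2.44 in knockout chow, 2.30, 3.11 and 2.85 in wild-type FFC and 1.39, 1.79 and 1.85 CPM in knockout FFC livers. It passed no test, but its log2 change in knockout livers did without knockout chow replicate 2 (-1.36, edgeR adjusted p = 0.0313).

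Of the receptors, Ccr2, the receptor of inflammatory monocytes, rose in both genotypes. It was 0.864, 2.22 and 1.86 CPM in wild-type chow and 8.54, 6.38 and 4.26 CPM in wild-type FFC livers, and 0.392, 1.22 and 0.724 CPM in knockout chow and 7.70, 3.28 and 1.94 CPM in knockout FFC livers. The diet groups did not overlap in either genotype, and the knockout FFC libraries spread widely (4.31 ± 3.01 CPM, SD, n = 3). The log2 changes were 1.96 (SE 0.51, edgeR adjusted p = 0.0135) and 2.46 (SE 0.54, edgeR adjusted p = 0.00374). The first was lost without wild-type chow replicate 2 (adjusted p = 0.0604) and without wild-type FFC replicate 2 (0.0721).

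Cx3cr1, the fractalkine receptor of patrolling monocytes and some tissue macrophages, was 0.192, 0.633 and 0 CPM in wild-type chow and 4.02, 2.74 and 2.26 CPM in wild-type FFC livers. The log2 change was 3.45 (SE 0.92, edgeR adjusted p = 0.0161), which was lost without wild-type chow replicate 2 or 4 or wild-type FFC replicate 2 (adjusted p 0.0556 to 0.0702). In knockout livers it had 2 counts in all on chow (0.0980, 0 and 0 CPM) and stood at 3.39, 0.372 and 0.824 CPM on FFC. The ratio there was 42.3 (95% counting interval 11.5 to 353, edgeR adjusted p = 0.0052). Its ligand Cx3cl1 (fractalkine) was 0.240, 1.16 and 0 CPM in wild-type chow and 2.05, 1.37 and 1.06 CPM in wild-type FFC livers. These ranges overlapped and the log2 change of 1.68 (SE 0.94) did not pass (edgeR adjusted p = 0.244).

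Cxcr4 and Ccr1 passed the edgeR diet test in wild type and not in knockout livers. Cxcr4, the receptor of Cxcl12, was 0.240, 0.106 and 0.251 CPM in wild-type chow and 3.15, 2.85 and 2.67 CPM in wild-type FFC livers, a log2 change of 3.82 (SE 0.73, edgeR adjusted p = 0.00198). In knockout livers it was 0.588, 0.663 and 0 CPM on chow and 1.79, 0.980 and 1.35 CPM on FFC, with no overlap and a log2 change of 1.66 (SE 0.66, edgeR adjusted p = 0.0726) that passed with DESeq2 (1.62, adjusted p = 0.0272) and with no filter on low counts (1.69, 0.0423). The difference between the 2 diet effects was -2.16 (SE 0.98, edgeR adjusted p = 0.288) and so was not past the test, though it was without knockout chow replicate 3, the library with no Cxcr4 count (-2.73, adjusted p = 0.0422). Ccr1, the receptor of Ccl3, Ccl5, Ccl6 and Ccl9, had 3 counts in all in wild-type chow livers (0.0960, 0.0528 and 0 CPM) and 0.787, 0.870 and 1.03 CPM in wild-type FFC livers. The ratio was 17.8 (95% counting interval 5.90 to 87.7, edgeR adjusted p = 0.0277). It was lost when wild-type chow replicate 3 or 4, or any 1 of the wild-type FFC libraries, was left out (adjusted p 0.0693 to 0.0885). Knockout livers had 0, 0.204 and 0.329 CPM on chow and 0.631, 0.237 and 0.0659 CPM on FFC, which overlapped (log2 change 0.85, SE 1.06). That value became -0.18 without knockout FFC replicate 1.

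Cxcr6, the receptor of Cxcl16 on liver T and NKT cells, and Ccr7, which guides dendritic cells and naive T cells to lymph nodes, passed no edgeR test over all libraries. Cxcr6 was 1.44, 0.106 and 1.505 CPM in wild-type chow, 0, 0 and 0.593 in knockout chow, 0.815, 0.870 and 0.910 in wild-type FFC and 1.33, 0.980 and 0.857 CPM in knockout FFC livers. In knockout livers the diet groups did not overlap and the log2 change was 2.53 (SE 1.06, edgeR adjusted p = 0.0864). It passed with DESeq2 (2.48, adjusted p = 0.0418), with no filter on low counts (2.56, 0.0156) and without knockout chow replicate 3, the only one with a count (0.00396). The last of these fits left no Cxcr6 count in knockout chow livers, so its value depends on the prior count. Ccr7 was 0.192, 0 and 0.301 CPM in wild-type chow, 0, 0.255 and 0 in knockout chow, 0.703, 0.448 and 0.734 in wild-type FFC and 0.531, 0.676 and 0.461 CPM in knockout FFC livers. It did not overlap between the diets in either genotype, and the log2 change in knockout livers (2.58, SE 1.13, edgeR adjusted p = 0.0998) passed the 0.05 threshold only without knockout chow replicate 2, the only one with a count (adjusted p = 0.0167). That fit left no Ccr7 count in knockout chow livers, so the lower p is built in and the fitted value depends on the prior count. No chow library reached the filter level for Ccr7.

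Of 7 further tested genes, Ccl25, a ligand of Ccr9, and Ccl27a, a ligand of Ccr10 in skin, stood at 3.35 to 6.65 CPM in all libraries, and Ccl19, Ccl21a, Ccl22, Cxcl14 and Ccr9 at 0 to 2.25 CPM. None passed a test. Ccl22 and Cxcl14 did not overlap between the diets in wild type, with log2 changes of 2.91 and 1.83 (edgeR adjusted p = 0.126 and 0.154), which passed without knockout chow replicate 1 (0.0473 and 0.0179) and in the 2 groups alone (0.0446 and 0.01), as did Cxcl14 with no filter on low counts (0.0424). Ccl21a and Ccl27a have near-identical copies, and Ccl19 has pseudogenes, so their counts are uncertain.

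**Figure D4:**
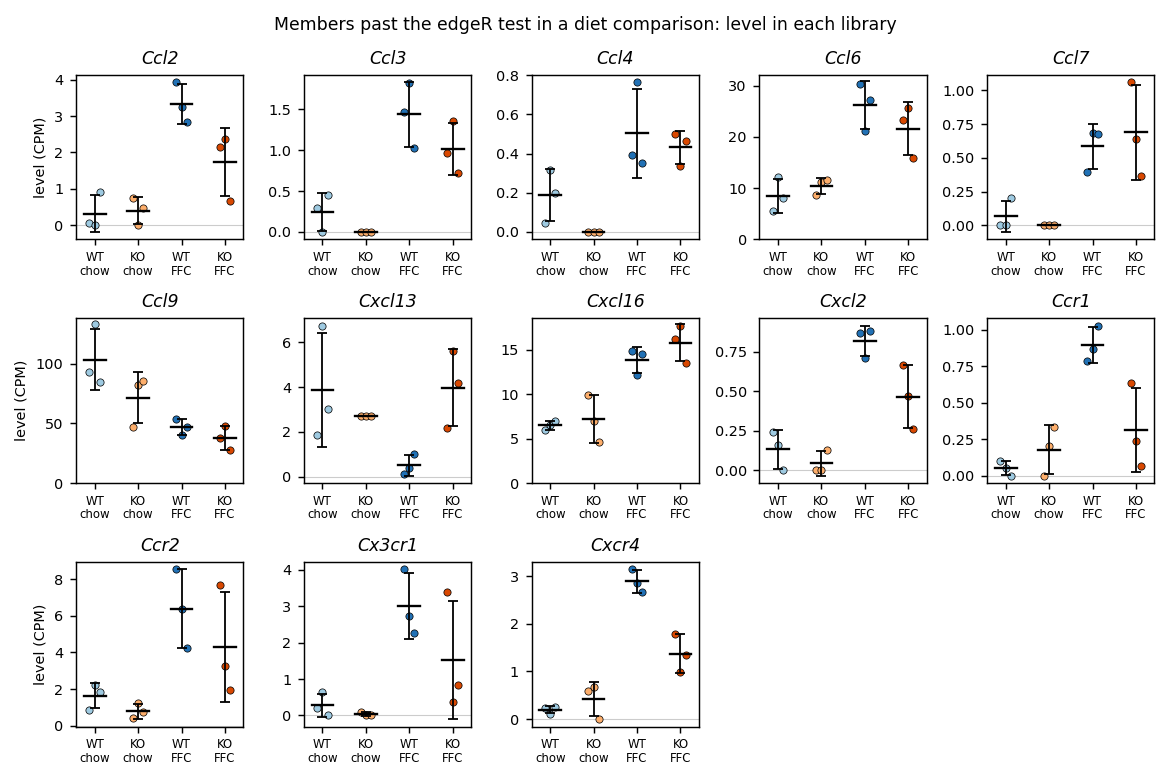
Level in each library (points, CPM, linear axis) with the mean and SD of 3 libraries (bars) for 13 genes that passed the edgeR test in a diet comparison. Ccl9 falls on FFC in both genotypes, Cxcl13 falls in wild type, and the means of the other 11 are higher on FFC in both genotypes.

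Other genes of the pathway were counted from lists, to be read against the 8.76% of all tested genes that rose in wild type and the 13.7% in knockout livers. The shares that fell were 8.03% and 12.8%. Of 24 tested genes that act below chemokine receptors (G proteins, arrestins, kinases, RGS proteins and leukocyte integrins), 16 rose on FFC in wild type and 10 in knockout livers, and none fell. In wild type these included Itgb2, the shared beta subunit of leukocyte integrins (log2 change 1.78, SE 0.25, edgeR adjusted p = 2.16e-04), and Rgs1, which shortens G protein signals in lymphocytes (3.04, SE 0.47, edgeR adjusted p = 4.08e-04). In knockout livers they included Itgb2 (1.96, SE 0.26, edgeR adjusted p = 1.03e-04) and Grk3, a receptor kinase (1.69, SE 0.34, edgeR adjusted p = 0.00187). Of 17 tested regulators of chemokine genes in the NF-kB and interferon pathways, 8 rose in each genotype and none fell. In wild type they included Tnfaip3, a feedback inhibitor of NF-kB (log2 change 1.58, SE 0.38, edgeR adjusted p = 0.00873). The interferon gamma receptor chain Ifngr1 rose by 0.98 (SE 0.19, edgeR adjusted p = 0.00132) in knockout livers. Among 12 tested chemokine-like ligands and atypical receptors outside the name rule, only the chemerin receptor Cmklr1 rose, in wild type (1.73, SE 0.41, edgeR adjusted p = 0.00831), while chemerin (Rarres2) and Mif fell in both genotypes (wild type -0.74, SE 0.17 and -0.72, SE 0.22).

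Cell type markers moved with the diet as well, and are to be read against the same shares. Of 8 general macrophage markers 7 rose in wild type and 6 in knockout livers, and their summed level on chow was 172 to 219 CPM (wild type) and 177 to 232 CPM (knockout), and on FFC 481 to 555 CPM (wild type) and 471 to 646 CPM (knockout). Of 10 markers of monocytes and recruited macrophages, which share Itgam with the signalling list, 4 rose in wild type and 6 in knockout livers. F13a1 and Gpnmb had no count in knockout chow livers, and 2 of the 10 log2 changes there were negative. The summed level in wild type was 803 to 980 CPM on chow and 1094 to 1099 CPM on FFC. In knockout livers it was 963 to 1283 CPM on chow and 687 to 1257 CPM on FFC, overlapping ranges. Of 8 T cell markers 2 rose in each genotype, Themis and Cd8b1, and Cd8b1 had no count in either chow group. Of the 8 log2 changes 7 were positive and 1 negative in wild type (median 1.42), and 5 and 3 in knockout livers (median 0.44). The summed level of the 9 T cell markers in the table was 3.01 to 7.45 CPM on chow and 11.6 to 29.4 CPM on FFC. No NK cell marker of 5 passed in either genotype (edgeR, with 1 and 0 at an unadjusted p under 0.05), and no cholangiocyte marker of 6 (1 and 2). Of 7 dendritic cell markers 3 rose in each genotype, of 7 sinusoidal endothelial markers 4 rose in wild type and 2 in knockout livers, and of 5 B cell markers 1 rose in knockout livers. Of 5 neutrophil markers 1 rose in each genotype (Csf3r). The 5 log2 changes were 4 positive and 1 negative in wild type (median 0.74), but 2 positive and 3 negative in knockout livers (median -0.51). Of 8 Kupffer cell markers 4 rose and 1 fell (Marco) in wild type, and 6 rose in knockout livers. Stellate cell markers rose in 7 of 8 cases in wild type and in 2 of 8 in knockout livers. The part of these cell types in the chemokine values was not tested.

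The comparison of knockout with wild type on FFC addresses whether myeloid S1pr1 loss alters the inflamed liver. None of the 32 tested genes passed it, where 0.0184% of all tested genes did (edgeR, 3 genes). By unadjusted p under 0.05, 2 of the 32 (Cxcl13 and Cxcl9) did, with 3.63% of all tested genes, and DESeq2 called 1 (Cxcl13). Of the 32, 23 had a negative and 9 a positive log2 change, with a median of -0.37, against -0.01 for all tested genes. Levels did not overlap for 8 genes (25%, against 21.3% of all tested genes, 10.9% higher and 10.5% lower). Of these, 7 were lower in knockout livers, among them Ccl2, Ccl24, Cxcl2, Cxcl10, Ccr1 and Cxcr4, and 1 was higher (Cxcl13).

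Within those 7, the log2 differences were -0.95 (SE 0.83) for Ccl2, -1.07 (SE 0.60) for Cxcr4 and -0.55 (SE 0.35) for Cxcl10, each with an edgeR adjusted p of 1.0. For Cxcr4 the means were 2.89 ± 0.241 CPM in wild-type FFC and 1.37 ± 0.407 CPM in knockout FFC livers (SD, n = 3), and in the same order for Ccl2 3.34 ± 0.550 and 1.73 ± 0.931 CPM. The receptors Ccr2 and Cx3cr1 overlapped between the genotypes, with log2 differences of -0.57 (SE 0.47) and -0.98 (SE 0.77). Cxcl9 was 17.2 ± 3.29 and 12.2 ± 2.16 CPM, a log2 difference of -0.50 (SE 0.22, edgeR unadjusted p = 0.034, adjusted p = 1.0). The summed level of the general macrophage markers overlapped between these groups (481 to 555 against 471 to 646 CPM). None of these 8 markers passed the test, and 3 had an edgeR unadjusted p under 0.05 (3.63% of all tested genes did). Single markers did not overlap in 2 cases, 1 higher and 1 lower in knockout livers (25%, against 21.3% of all tested genes). Of 8 Kupffer cell markers 2 were higher in knockout FFC livers, Marco by 2.68 (SE 0.32, edgeR adjusted p = 0.00219) and Timd4 by 1.72 (SE 0.25, edgeR adjusted p = 0.0176). On FFC the Kupffer cell list summed to 385 to 465 CPM (wild type) and 530 to 672 CPM (knockout), and its part in the chemokine values was not tested.

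**Figure D5:**
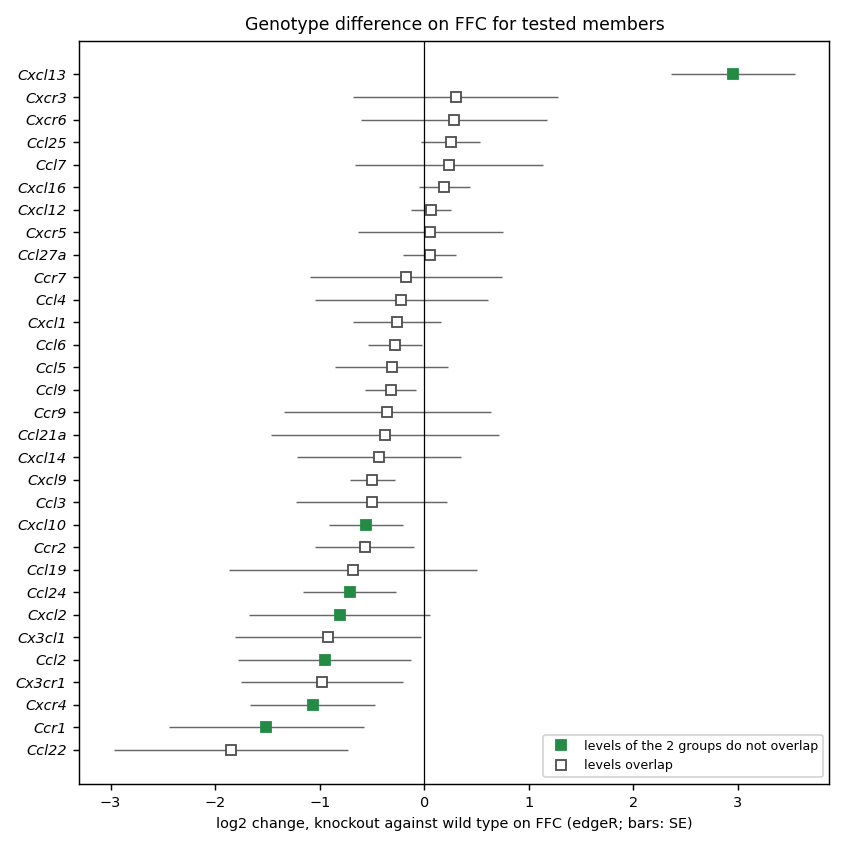
The log2 difference between knockout and wild type on FFC for 31 tested genes, with SE from the edgeR fit as bars. Filled squares are the 7 of these genes whose 3 knockout and 3 wild-type libraries do not overlap, and no gene passed the adjusted test. Cxcl13 stands at 2.96, and 22 of the 31 lie below 0.

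Cxcl13 (ENSMUSG00000023078, chromosome 5, 95956928 to 95961067 on mm10) was the 1 gene of the 8 that lay higher in knockout livers. Its levels were 1.87, 6.75 and 3.01 CPM in wild-type chow and 2.70, 2.70 and 2.70 CPM in knockout chow livers (55, 53 and 41 counts). They were 0.141, 0.369 and 1.03 CPM in wild-type FFC and 2.16, 5.61 and 4.18 CPM in knockout FFC livers. The 3 wild-type FFC libraries lay below all others. The diet lowered it in wild type by a log2 change of -2.92 (SE 0.60, edgeR adjusted p = 0.00337), a call that held under every alternative. In knockout livers the diet change was 0.56 (SE 0.54, edgeR adjusted p = 0.468). The genotype difference on FFC was 2.96 (SE 0.59), with an unadjusted edgeR p of 1.02e-04 and an adjusted p of 0.208. The adjusted p was 7.96e-04 with DESeq2 and 1.19e-07 in edgeR with no filter on low counts. Over all genes those fits called 18 and 114, against 3 in the main fit. Only these 2 of 7 alternative fits passed. None of the 12 edgeR fits without 1 library did (adjusted p of 0.131 or more). The difference between the diet effects was 3.48 (SE 0.80, edgeR adjusted p = 0.0852, DESeq2 0.00487), and it passed in edgeR without knockout chow replicate 3 (adjusted p = 0.0455). Its receptor Cxcr5 ranged on chow over 0.288 to 0.401 CPM (wild type) and 0.765 to 1.67 CPM (knockout), and on FFC over 0.197 to 0.764 CPM and 0.264 to 0.608 CPM, and passed no test. The summed level of 6 B cell markers on FFC was 2.95 to 5.17 CPM (wild type) and 4.85 to 6.26 CPM (knockout), overlapping ranges, and its part in the Cxcl13 values was not tested.

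On chow, knockout and wild type differed in 7.28% of all tested genes and in none of the 32 (edgeR), while 6 of the 32 had an unadjusted p under 0.05 (26.7% of all tested genes) and DESeq2 called 2 (Ccl3 and Ccl4). With no filter on low counts 2 passed (Ccl3 and Cxcr6). The median log2 difference was -0.18, against -0.02 over all tested genes. Knockout chow livers had no count of Ccl3, Ccl4 or Ccl7, where wild-type chow livers had 15, 11 and 4 in all. Against the floor of 3 counts Ccl3 was at least 4.62-fold lower (edgeR adjusted p = 0.0568, or 0.0341 without wild-type chow replicate 3) and Ccl4 at least 3.39-fold lower (edgeR adjusted p = 0.0751). Cxcr6, with 9 counts against 62, differed by -2.48 (SE 1.07, edgeR adjusted p = 0.152) and passed without knockout chow replicate 3 (0.0106), which held all 9. Without that library no knockout chow count was left, so the lower p is built in. Levels did not overlap for 2 genes (6.25%, against 20.6% of all tested genes, 9.62% higher and 11% lower), Ccl4, lower in knockout, and Cxcr5, higher. Effective library sizes, which set these floors, were 15184499 to 20825790 counts on chow.

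For none of the 32 did the diet effect differ between genotypes past the test, where 0.0491% of all tested genes did (edgeR, 8 genes). By unadjusted p under 0.05 there were 4 (Cxcl13, Ccl3, Ccl4 and Cxcr4), with 16.1% of all tested genes, and DESeq2 called Cxcl13. Genes that passed the diet test in a single genotype are therefore not shown to differ between genotypes.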

How the data were processed

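The 12 liver libraries were read from both ends. What the authors deposited are raw counts by Ensembl gene, beside other columns such as gene length. Their alignment used TopHat 2.1.0 on mm10, their counting featureCounts 1.4.6 and their tests edgeR 3.18.1, per the design text. Whether counting used strand, and which Ensembl release, is not given in the sources used here. Replicates were not pooled, no 2 libraries were identical and the labels give no batch.

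Genes were filtered with filterByExpr by group (10 counts at the median depth, 0.387 CPM, in at least 3 libraries), scaled by TMM and fitted once over all 12 libraries and 4 groups with edgeR 4.0.16 (R 4.3.3, limma 3.58.1, robust quasi-likelihood). Diet was tested within genotype, genotype within diet, and their interaction, 5 contrasts in all. The two-sided p-values were Benjamini-Hochberg adjusted across 16283 genes at a threshold of 0.05. SE was the log2 change divided by the root of its F statistic. Levels are CPM on effective library sizes, and CPM per kb uses the deposited length. Floors are 3 counts over a group, and ratios for 1 to 3 counts have a 95% counting interval that covers counting error only. The pipeline was tested on simulated counts, with changes planted only in genes of higher mean count. That check does not cover the genes near 0 on chow. Promoter windows came from RefSeq (GRCm38.p6), with 40 of 54 genes matched.

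The members, gene lists and the rule for named genes were chosen with earlier results of these data known. The rule took genes past a test in any contrast and others fixed by name (among them Ccl2, Ccr2, Ccl5, Cx3cr1, Cx3cl1, Cxcl1, Cxcl2, Cxcl9, Cxcl10, Cxcl12, Cxcl16, Cxcr3, Cxcr4, Cxcr6, Cxcr2, Ccl24, Ccr7), and up to 3 genes of lowest p per other list. Some lists are given by counts alone. Some genes are counted but not reported here by name. Cxcr5 values were added after they were seen. Alternatives were median-ratio size factors, no filter, the authors' stated filter (protein-coding, RPKM of at least 1 in 1 library), DESeq2 1.42.0, the 2 groups alone, a replicate block, GC and length offsets (known for 99.06% of tested genes), an adjusted p under 0.1, and each library left out.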

Additional observations from a re-analysis of the deposited data

How the results depend on the processing

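The number of genes past the test was 11 in wild type for diet and ranged from 9 to 15 over 8 alternatives and from 6 to 16 when each library was left out in turn. For diet in knockout livers it was 10, ranging from 5 (replicate block) to 15, and from 7 to 13 without 1 library. For genotype on FFC it was 0, but 1 with no filter on low counts and 1 with DESeq2, and from 0 to 0 without 1 library. On chow it was 0, but 2 with no filter, 2 with DESeq2 and 2 at an adjusted p under 0.1, and from 0 to 2 without 1 library. For the interaction it was 0, but 1 with no filter, 1 with DESeq2 and 1 at an adjusted p under 0.1, and from 0 to 3 without 1 library. With the replicate number as a block the counts were 9, 5, 0, 0 and 0. The labels do not say whether equal numbers mark a pairing. The 10 same-numbered pairs of libraries had correlations of their deviations from -0.124 to 0.090, and the 44 other pairs from -0.174 to 0.104. With groups of 3 this does not settle whether libraries are paired. Knockout FFC replicate 7 shared its number with no other library, so the block gave it no weight. The block took the calls of Ccl3 (edgeR adjusted p = 0.11) and Ccr1 (0.0545) in wild type. In knockout livers it took those of Ccl4 (0.058), Ccl7 (0.0656), Ccl9 (0.173) and Cxcl2 (0.0867), among others. Cxcl2 in knockout livers also lost its call in the 2 groups alone (0.118). Signs turned for 3 log2 changes, none past the test: Cxcl13 in knockout livers with the block (-0.12), Cxcl12 in wild type without chow replicate 3 (0.051) or FFC replicate 2 (0.0058), with a range of -0.14 to 0.051 without 1 library, and Ccr1 in knockout livers without FFC replicate 1 (-0.18, range -0.18 to 1.54). The calls that held throughout included Ccl6 and Cxcl16 in both genotypes, Ccl9, Cxcl13 and Cxcr4 in wild type, and Ccl3, Ccr2 and Cx3cr1 in knockout livers. Over all genes, the calls for diet went from 2734 to 4137 (wild type) and from 4312 to 2369 (knockout) in the 2 groups alone, for genotype on FFC from 3 to 18 with DESeq2, for genotype on chow from 1185 to 2247 with DESeq2 and 14 in the 2 groups alone, and for the interaction from 8 to 419 with DESeq2. With no filter on low counts, over 25570 genes, the calls were 114 for genotype on FFC, 1917 for genotype on chow and 600 for the interaction. With the replicate block they were 14, 183 and 396 in that order. The cause of these shifts was not tested. Depth limits the low genes most, since 3 counts over 1 library equal 0.0791 to 0.198 CPM.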

Other observations

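Cxcl11, the third ligand of Cxcr3 beside Cxcl9 and Cxcl10, carries the biotype of a polymorphic pseudogene in the table and so falls outside the protein-coding genes described above. It had 4.56, 2.59 and 2.31 CPM in wild-type chow, 0.637, 2.86 and 0.988 in knockout chow, 5.34, 6.19 and 3.76 in wild-type FFC and 4.48, 3.45 and 4.55 CPM in knockout FFC livers. In knockout livers the diet groups did not overlap and the log2 change was 1.47 (SE 0.45, edgeR adjusted p = 0.0239), while in wild type they overlapped (0.69, SE 0.43, edgeR adjusted p = 0.295). The difference between these effects was 0.77 (SE 0.62, edgeR adjusted p = 0.559) and not past the test.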
